A study of Homo sapiens with 6 samples.

Results

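The 10 genes described here encode receptor tyrosine kinases and the docking proteins of the insulin receptor branch. They were EGFR, ERBB2, ERBB3, MET, AXL, PDGFRB, IGF1R, INSR, IRS1 and IRS2, chosen by name from 18417 genes that the array measured with a single gene symbol, and all 10 were found. A gene was read through its transcript cluster, meaning all probes placed together at 1 locus in the design of the array. Where a gene had more than 1 cluster, the cluster that was brightest on average was used; among the 10, only IGF1R had a second cluster of its own. The values are log2 expression values after RMA, so a difference of 1 is a doubling of signal. Levels of different genes are not set against each other, because probes differ in how brightly they bind.

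The cells were MDA-MB-231, a widely used human cell line of triple-negative breast cancer. One group of 3 arrays came from cultures given 1 µM selamectin for 24 h, a veterinary antiparasitic of the avermectin family. The other 3 arrays came from control cultures that the titles call untreated, while the treatment protocol speaks of vehicle, so what the controls received is not settled. Both groups were grown in DMEM with fetal bovine serum, and the series title presents avermectins as inhibitors of the SIN3 corepressor.

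Receptor tyrosine kinases are single-pass membrane proteins. In most of them a ligand brings receptor chains together, and the kinase domains then phosphorylate tyrosines on their own tails. Those tyrosines recruit adaptors that feed the RAS-MAPK and PI3K-AKT pathways. The insulin and IGF1 receptors differ in that they pass most of the signal through separate docking proteins, the insulin receptor substrates. In triple-negative breast cancer lines EGFR, MET and AXL are well-studied drivers of growth and migration, whereas ERBB2 is by definition not amplified.

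After selamectin, 1 of the 10 genes rose and 1 fell. IRS1 was 1.40-fold lower in selamectin cultures and PDGFRB was 1.27-fold higher, each past an adjusted p of 0.05 in limma, a linear model that borrows information on spread across genes. The rate among all 18417 genes was 4.69%, with 2.41% called higher and 2.28% called lower. The median log2 difference was -0.22 over the 10 genes and 0.04 over all genes. The 3 selamectin arrays lay wholly below the 3 untreated arrays for 6 of the 10 genes (EGFR, ERBB3, IGF1R, INSR, IRS1 and IRS2) and wholly above for PDGFRB; over all genes 25.3% had groups that did not overlap, 9.30% wholly below and 16.0% wholly above. At an unadjusted p under 0.05 there were 6 of the 10, against 19.9% of all genes. The 10 genes were chosen with earlier results of these arrays known, so these counts are a description. Beside the counts of 1 higher and 1 lower, a second quantile normalization gave 1 higher and 3 lower, and median-centred arrays gave 1 higher and 2 lower. Over all genes, 444 were higher and 420 lower in the reported fit. A second quantile normalization gave 380 and 525, and median-centred arrays 496 and 442. Since these are cultures measured in bulk, fewer cells of a kind that carries a transcript and less of that transcript per cell cannot be told apart.

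**Figure D1:**
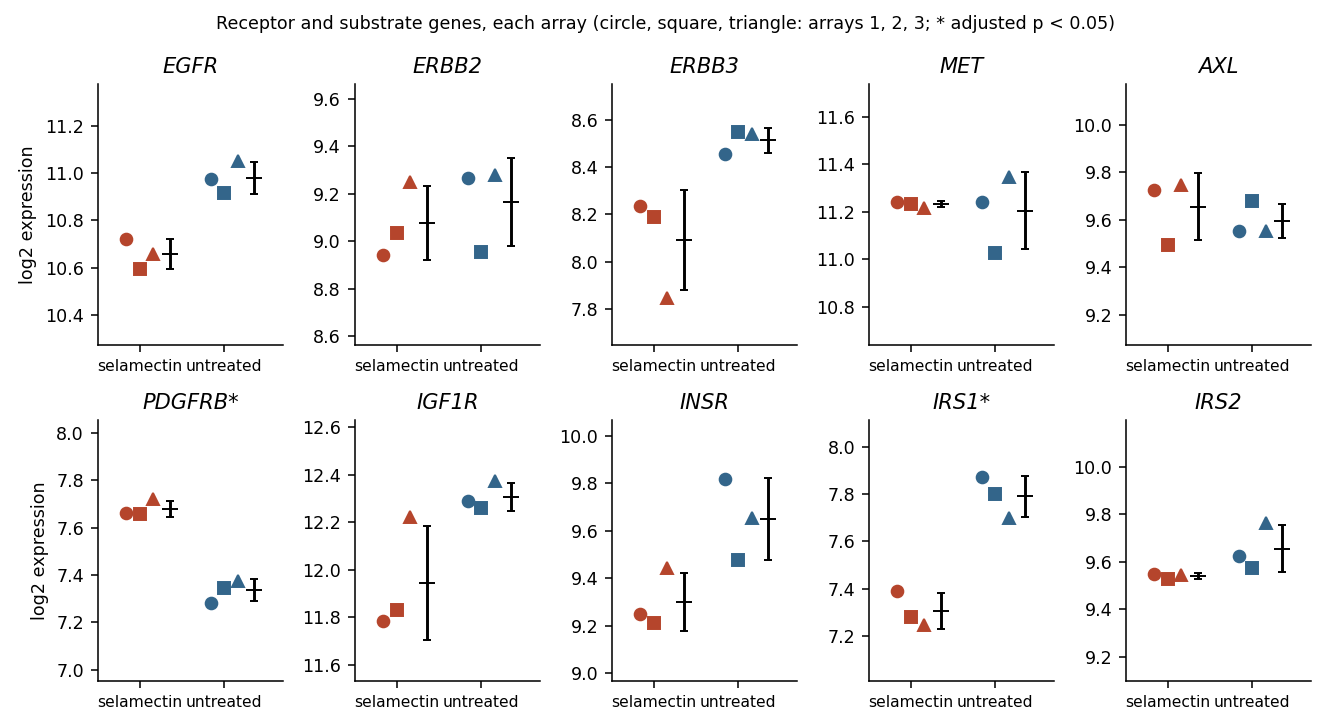
Log2 expression of each of the 10 genes on each array, selamectin on the left and untreated on the right; circles, squares and triangles are arrays 1, 2 and 3 of a group, and the bars give mean ± SD (n = 3). Every panel spans the same number of log2 units. The 2 groups are apart in 7 panels, with selamectin lower in 6 and higher in that of PDGFRB, and they overlap for ERBB2, MET and AXL.

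IRS1, the first insulin receptor substrate, is a docking protein that carries IGF1 and insulin signals to PI3K. On the selamectin arrays its log2 values were 7.39, 7.28 and 7.25, against 7.87, 7.80 and 7.70 on the untreated arrays. The highest selamectin value lay 0.31 below the lowest untreated value, a gap larger than the range within either group (0.14 and 0.17). The means were 7.31 ± 0.08 with selamectin and 7.79 ± 0.09 untreated (SD, n = 3 each), and the log2 change was -0.48 ± 0.09 (SE; 95% interval -0.68 to -0.28; limma adjusted p = 0.015). Of all genes, 3.08% differed by more than IRS1 in either direction. IRS1 lost its call without selamectin array 2 (limma adjusted p = 0.068), without untreated array 1 (0.063) and when all 33297 clusters entered the fit (0.068).

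IRS2, the paralogous substrate that dominates insulin signalling in several other tissues, had log2 values of 9.55, 9.53 and 9.54 with selamectin, against 9.63, 9.57 and 9.77 untreated. The groups were apart by 0.02 only, and the spread among selamectin arrays was small. Its log2 difference was -0.11 (interval -0.31 to 0.08, limma adjusted p = 0.52). The difference of IRS1 minus IRS2 was lower on every selamectin array than on every untreated array, by 0.37 log2 units on average. An exact permutation test of that difference over arrays, two-sided, gave p = 0.10, which is the smallest value that 3 arrays against 3 can give, and 0.16 after adjustment over 8 such pairs.

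IGF1R encodes the receptor for the insulin-like growth factors, which signals through IRS1 and IRS2. Its brighter cluster had log2 values of 11.78, 11.83 and 12.22 on the selamectin arrays, against 12.29, 12.26 and 12.37 on the untreated arrays. Selamectin arrays 1 and 2 lay well below the controls, whereas selamectin array 3 lay only 0.04 below the lowest control. The log2 difference was -0.36 ± 0.11 (SE, interval -0.60 to -0.12, limma adjusted p = 0.088), which did not pass. Without selamectin array 3 it was -0.50 with a limma adjusted p of 0.0041; without any one of the other arrays the adjusted p lay between 0.12 and 0.28.

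The dimmer IGF1R cluster separated the groups more widely. Its log2 values were 9.33, 9.20 and 9.42 with selamectin, against 10.06, 9.89 and 10.12 untreated. No selamectin array was near the controls, array 3 included. In the fit of all 33297 clusters, in which 0.748% were called, this cluster fell by 0.71 log2 units, or 1.63-fold (interval -0.94 to -0.48, limma adjusted p = 0.043). In the fit of all clusters the limma adjusted p was 0.11 without selamectin array 1, 0.17 without array 2 and 0.053 without array 3, and it was 0.16, 0.078 and 0.15 without untreated arrays 1, 2 and 3. In a fit of the 19460 clusters with 1 symbol, chosen after its values were seen, the limma adjusted p was 0.0055, and it stayed between 0.0029 and 0.034 whichever array was left out. With both clusters averaged, IGF1R stood at -0.53 with a limma adjusted p of 0.015. The dimmer cluster lay further below its control level than the brighter one on each selamectin array, by 0.34 log2 units on average (exact permutation p = 0.10, the smallest possible, adjusted p = 0.16 over 8 pairs). Which parts of the IGF1R transcript each cluster reads is not given in the tables used here.

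**Figure D2:**
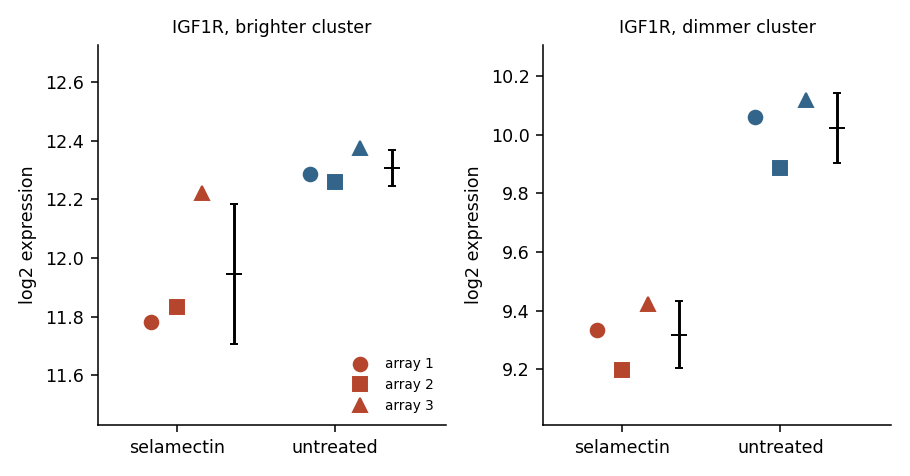
Log2 expression of the 2 IGF1R clusters on each array, selamectin left and untreated right, with mean ± SD (n = 3); both panels span the same number of log2 units. Selamectin array 3 (triangle) sits at 12.22, close to the controls, in the brighter cluster and at 9.42, with the other selamectin arrays, in the dimmer one.

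INSR encodes the insulin receptor, the closest relative of IGF1R, with which it can form hybrid receptors. Its log2 values were 9.25, 9.21 and 9.44 with selamectin, against 9.82, 9.48 and 9.65 untreated. The groups did not overlap, though the gap between them was 0.03 while the untreated arrays alone spanned 0.34. The log2 difference was -0.35 (interval -0.60 to -0.10, limma adjusted p = 0.11). As with IGF1R, the highest selamectin value came from array 3, and without that array the log2 difference was -0.42 (limma adjusted p = 0.051). The differences of the brighter IGF1R cluster and of INSR between groups lay 0.01 log2 units apart (exact permutation p = 0.90). The dimmer IGF1R cluster, at -0.71, was not compared with INSR in this way.

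The promoters of IRS1, the gene that fell, and PDGFRB, the gene that rose, are shown. That of IGF1R is added, of whose 2 clusters only the dimmer passed in the fit of all clusters. Each is the RefSeq window of 250 bases before to 50 bases after the annotated start, in build GRCh38.p14 and written along the gene's strand. The windows are chr2:226799771-226800070 on the minus strand for IRS1, chr15:98648289-98648588 on the plus strand for IGF1R and chr5:150155796-150156095 on the minus strand for PDGFRB. Capitals mark matches on either strand to the GC box GGGCGG or the E-box CACGTG.
IRS1: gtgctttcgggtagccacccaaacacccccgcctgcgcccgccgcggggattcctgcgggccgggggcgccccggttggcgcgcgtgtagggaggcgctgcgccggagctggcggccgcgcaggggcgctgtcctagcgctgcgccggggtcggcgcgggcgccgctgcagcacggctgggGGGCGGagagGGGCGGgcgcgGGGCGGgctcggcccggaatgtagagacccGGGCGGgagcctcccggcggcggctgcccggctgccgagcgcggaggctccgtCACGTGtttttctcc
IGF1R: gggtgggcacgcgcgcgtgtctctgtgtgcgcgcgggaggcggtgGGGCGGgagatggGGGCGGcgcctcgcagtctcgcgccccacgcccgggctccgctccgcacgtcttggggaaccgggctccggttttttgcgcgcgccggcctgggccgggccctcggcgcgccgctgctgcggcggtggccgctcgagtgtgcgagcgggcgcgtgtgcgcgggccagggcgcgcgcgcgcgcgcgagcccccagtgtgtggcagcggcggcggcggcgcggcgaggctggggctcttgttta
PDGFRB: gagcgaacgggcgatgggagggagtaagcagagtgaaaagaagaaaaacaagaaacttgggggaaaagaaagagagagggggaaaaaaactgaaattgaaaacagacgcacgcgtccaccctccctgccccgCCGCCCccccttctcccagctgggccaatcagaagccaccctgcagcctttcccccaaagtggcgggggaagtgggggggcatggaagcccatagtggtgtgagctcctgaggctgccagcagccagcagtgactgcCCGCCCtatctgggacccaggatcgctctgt

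The IRS1 window held 4 GC boxes and 1 E-box, and its GC content was 79.3%. The IGF1R window held 2 GC boxes at a GC content of 79.7%, and the PDGFRB window 2 at 59.3%, against a median of 58.7% over 35116 such windows in the table. A GC box, the motif of Sp1-type factors, was present in 45.0% of all windows, and in windows of 8 of the 9 genes that matched the table by symbol. The E-box, the motif that MYC and MXD proteins bind with MAX, was present in 7.3% of all windows and in those of IRS1 and MET. The FOXO motif GTAAACA was present in 3.4% of all windows and the AP-1 motif TGANTCA in 7.7%; neither was found in the windows of the 3 genes printed here. Overlapping matches were counted each. These are matches of letters, not measured binding sites.

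PDGFRB encodes the beta receptor for platelet-derived growth factor, best known in pericytes and fibroblasts and also found on mesenchymal breast cancer cells. Its log2 values were 7.66, 7.66 and 7.72 on the selamectin arrays, against 7.28, 7.35 and 7.38 on the untreated arrays. The groups were 0.28 apart, while they spanned 0.06 and 0.09 themselves. The means were 7.68 ± 0.03 with selamectin and 7.34 ± 0.05 untreated (SD, n = 3 each), a log2 change of 0.34 ± 0.08 (SE, interval 0.16 to 0.52, limma adjusted p = 0.040). The call was lost whichever array was left out, with limma adjusted p values of 0.0998, 0.13 and 0.080 without selamectin arrays 1, 2 and 3 and of 0.13, 0.056 and 0.12 without untreated arrays 1, 2 and 3. With all clusters in the fit it was 0.10. A cluster annotated to both EBF1 and PDGFRB, which cannot be given to either gene, had log2 values of 6.43, 6.61 and 6.41 with selamectin, against 6.25, 6.503 and 6.38 untreated. Of 11 fibroblast and pericyte markers, none passed in limma, and DCN (0.17) was the 1 with an unadjusted p under 0.05. The mean level of those markers lay between 6.94 and 6.999 on the selamectin arrays and between 6.84 and 6.95 on the untreated arrays. No detection calls were used here, so markers at background cannot be told from low ones, and their part in the result was not tested. The same limit applies to PDGFRB untreated (7.34) and to IRS1 with selamectin (7.31). Both means lay under the array medians of 7.47 to 7.51.

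EGFR encodes the epidermal growth factor receptor, the founding member of the ERBB family. With selamectin it had log2 values of 10.72, 10.59 and 10.66, against 10.97, 10.92 and 11.05 untreated. The groups were 0.19 apart, wider than the range within either (0.13 and 0.14). The log2 difference was -0.32 (interval -0.51 to -0.14), with a limma adjusted p of 0.053 that missed the threshold by little. It passed after a second quantile normalization (0.033), without the genes under the median level (0.040), without the intensity trend (0.044) and with array weights (0.0043), and did not pass in any fit that left out an array (limma adjusted p from 0.056 to 0.22).

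ERBB3 encodes a family member with little kinase activity of its own that binds neuregulins and, paired with another ERBB receptor, is a strong route to PI3K. Its log2 values were 8.24, 8.19 and 7.85 on the selamectin arrays, against 8.45, 8.55 and 8.54 on the untreated arrays. Every selamectin array lay below every control, and array 3 lay furthest down. The log2 difference was -0.42 (interval -0.67 to -0.17, limma adjusted p = 0.060). It passed after a second quantile normalization (0.045), with median-centred arrays (0.043), without the genes under the median level (0.042), with robust eBayes (0.047) and with array weights (0.011), and in no fit that left out an array (limma adjusted p from 0.062 to 0.18). Without selamectin array 3 it was -0.30 (limma adjusted p = 0.11).

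ERBB2, the ERBB receptor that has no known ligand, showed overlapping groups. It had log2 values of 8.94, 9.04 and 9.25 with selamectin, against 9.27, 8.95 and 9.28 untreated. The log2 difference was -0.09, with an interval from -0.35 to 0.17 that leaves room for differences as large as that of EGFR. The differences of EGFR and ERBB2 were 0.23 log2 units apart, and those of ERBB3 and ERBB2 were 0.33 apart. Exact permutation tests gave p = 0.30 and p = 0.40, in a design that cannot go below 0.10 and so could not pass for any pair.

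MET, the receptor for hepatocyte growth factor, had log2 values of 11.24, 11.24 and 11.22 with selamectin, against 11.24, 11.03 and 11.35 untreated. The selamectin arrays all lay inside the range of the controls. The log2 difference was 0.03 (interval -0.18 to 0.23, limma adjusted p = 0.90), and its sign turned with a second quantile normalization. AXL, the receptor for GAS6 and a marker of mesenchymal breast cancer cells, had log2 values of 9.72, 9.49 and 9.75 with selamectin, against 9.55, 9.68 and 9.55 untreated. Its groups overlapped, with a log2 difference of 0.06 (interval -0.16 to 0.28, limma adjusted p = 0.78). The EGFR difference lay below that of MET by 0.35 and below that of AXL by 0.38 log2 units (exact permutation p = 0.10 for each, the smallest possible, adjusted p = 0.16 over 8 pairs). The difference of PDGFRB lay above that of EGFR by 0.67 log2 units, with the same p.

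**Figure D3:**
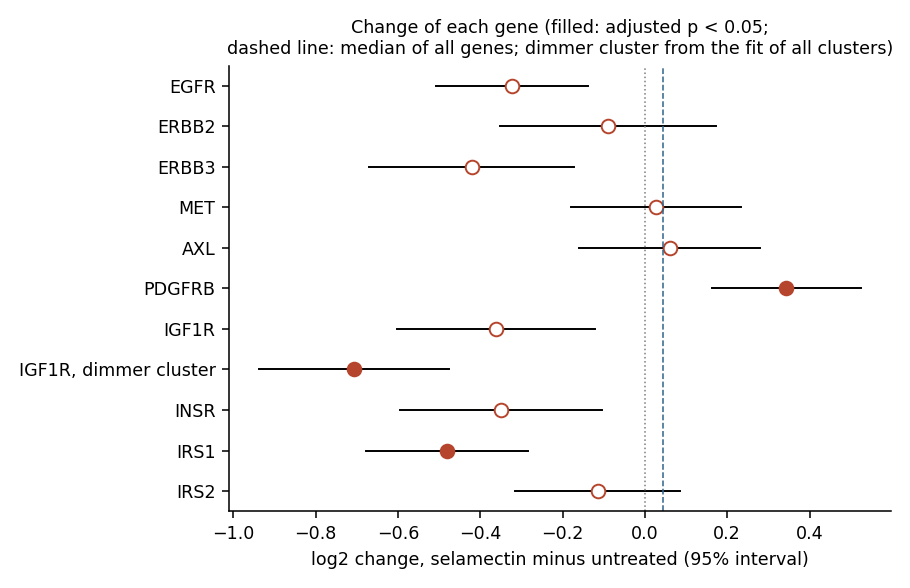
Log2 change of each gene, selamectin minus untreated, with the 95% interval of the limma fit (3 arrays per group); filled points had an adjusted p under 0.05, and the dashed line marks the median of all genes at 0.04. IRS1 and PDGFRB are filled on opposite sides of 0, the dimmer IGF1R cluster, taken from the fit of all clusters, lies furthest left at -0.71, and MET and AXL lie close to the dashed line.

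The arrays of the selamectin group were not alike in every receptor. Over all genes, the first principal component (45.8% of the variance) separated the groups, and along the second (20.8%) selamectin array 3 stood alone. Relative to the untreated mean, IGF1R stood at -0.52, -0.48 and -0.09 on selamectin arrays 1, 2 and 3 in log2 units. ERBB2 likewise stood at -0.22, -0.13 and 0.08, while ERBB3 ran the other way at -0.28, -0.32 and -0.66. EGFR stood at -0.26, -0.39 and -0.32 and IRS1 at -0.40, -0.51 and -0.54, with array 3 near the others for both. Without selamectin array 3, 2 of the 10 genes passed as lower, IRS1 and IGF1R, and none as higher; over all genes that fit called 464 lower and 685 higher, against 420 and 444 with all 6 arrays.

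**Figure D4:**
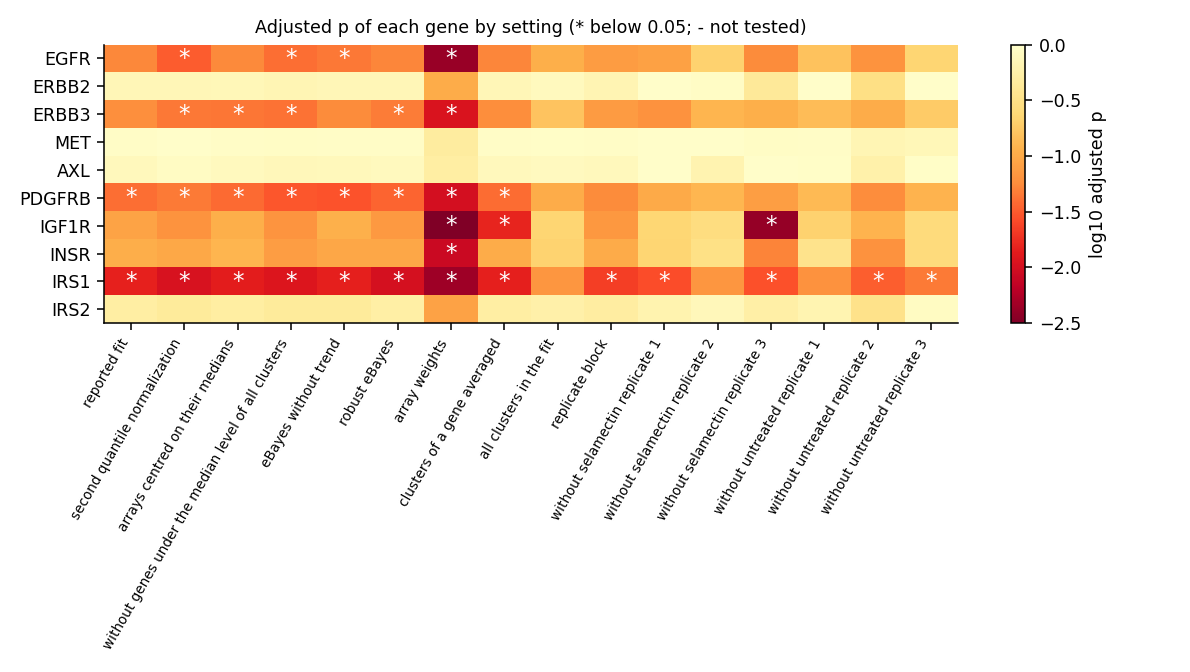
Limma adjusted p of each gene (rows) in the reported fit and under each alternative (columns), coloured on a log10 scale with darker red for smaller values; a star marks an adjusted p under 0.05. IRS1 has stars in most columns, PDGFRB in none of the 6 that leave out an array, and array weights add EGFR, ERBB3, IGF1R and INSR.

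By the profile over the 6 arrays, each gene's values taken relative to its own mean, the genes nearest to IRS1 were OCRL, a phosphoinositide phosphatase, CAPRIN2 and SEC24D, a subunit of the COPII coat. They differed from IRS1 by a root mean square of 0.03, 0.05 and 0.05 log2 units. Those nearest to PDGFRB were FUCA2, a fucosidase, ACAA1, a peroxisomal thiolase, and MRPS35, a mitochondrial ribosomal protein, each at 0.01 or 0.02 log2 units. The likeness is mostly the difference between the groups, which all of these genes share with the member they were matched to.

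The other genes of the pathway were read in 10 lists from ligand to target, with 208 different genes measured. Of these, 6 rose and 7 fell in limma, which is 6.25%, and their median log2 difference was 0.00, against 4.69% and 0.04 over all genes. The counts of higher and lower genes were 3 and 8, 2 and 2, and 14 and 8 without selamectin arrays 1, 2 and 3. They were 1 and 3, 5 and 7, and 3 and 2 without untreated arrays 1, 2 and 3.

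Among 18 ligands, 1 rose and 2 fell, against 4.69% of all genes called in either direction. PDGFA, whose homodimer binds the alpha receptor for PDGF and not the beta receptor, had log2 values of 11.04, 10.78 and 10.89 with selamectin, against 11.31, 11.67 and 11.45 untreated, a change of -0.57 (limma adjusted p = 0.015). PDGFB and PDGFD, the ligands of the beta receptor that PDGFRB encodes, had log2 differences of -0.03 (limma adjusted p = 0.90) and -0.25 (0.36) without passing, and are named here for that reason. GAS6, the ligand of AXL, had log2 values of 8.07, 8.02 and 7.86 with selamectin, against 8.33, 8.33 and 8.51 untreated, a change of -0.41 (limma adjusted p = 0.041). NRG4, a neuregulin that binds ERBB4, rose by 0.43 log2 units (limma adjusted p = 0.034). HGF and IGF1, named here as the ligands of MET and IGF1R, had log2 differences of 0.03 and 0.06 without passing.

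Among 45 other receptor tyrosine kinases, none rose and 2 fell, which is near the 4.69% called over all genes. Both that fell belong to the fibroblast growth factor receptor family, which was not tested as a set. FGFR2 had log2 values of 10.45, 10.34 and 10.13 with selamectin, against 11.18, 10.87 and 11.07 untreated, which made it 1.66-fold lower (limma adjusted p = 0.0068). FGFR4 stood at 8.62, 8.58 and 8.72 with selamectin, against 8.95, 9.17 and 9.10 untreated, a log2 change of -0.43 (limma adjusted p = 0.032). Both receptors had every selamectin array below every control. FGFR3 (-0.39, limma adjusted p = 0.052) and FGFR1 (-0.18, 0.35) did not pass; both lie outside the naming rule and were chosen after their values were seen. In this list of 45, 9 receptors had all selamectin arrays below all controls and 1 had them above, against 9.30% and 16.0% of all genes.

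Among 28 adaptors and docking proteins, 2 fell and none rose, against 4.69% of all genes called in either direction. GRB14, an adaptor that binds the insulin receptor and dampens its kinase, had log2 values of 6.73, 6.53 and 6.38 with selamectin, against 7.25, 6.94 and 7.11 untreated (change -0.55, limma adjusted p = 0.019). GAB2, a docking protein that brings PI3K and the phosphatase SHP2 to receptors, changed by -0.52 (limma adjusted p = 0.046). Among 24 genes of the PI3K-AKT-mTOR pathway, 3 rose and none fell, against the same 4.69%. PIK3R3, a regulatory subunit of PI3K, stood at 9.42, 9.44 and 9.76 with selamectin, against 8.96, 8.80 and 9.03 untreated, a log2 change of 0.61 (limma adjusted p = 0.015). GSK3A, a kinase that AKT inhibits, rose by 0.52 (limma adjusted p = 0.024) and AKT2, the AKT isoform linked to insulin action, by 0.41 (limma adjusted p = 0.038).

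Among 31 negative regulators of receptors, 1 fell and none rose, against 4.69% of all genes called in either direction. The gene that fell was PTPRF, the receptor phosphatase LAR, which can dephosphorylate the insulin receptor. Its log2 values were 10.27, 10.10 and 10.11 with selamectin, against 10.81, 10.78 and 10.88 untreated, so that it was 1.58-fold lower (limma adjusted p = 0.0045). TRIB3, a pseudokinase that binds AKT, stood at 0.44 without passing (limma adjusted p = 0.052), and passed without selamectin array 3 (0.041). Among 14 partners and shedding enzymes, 2 rose, against the same 4.69%. They were the membrane mucin MUC1 (0.84) and the hyaluronan receptor CD44 (0.42), which both can associate with ERBB receptors.

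The other 4 lists held no call in limma. At the rate of 4.69% over all genes, lists of this size can hold none. Of 16 MAPK output genes 3, and of 15 FOXO factors and FOXO-responsive genes 2, had an unadjusted p under 0.05, against 19.9% of all genes. The feedback inhibitor SPRY2 stood at -0.38 and the ETS factor ETV5 at -0.33 in the first list, RICTOR, a subunit of mTORC2, at -0.46 and TXNIP at -0.62 in the second. Without selamectin array 3 the log2 differences were -0.20 for SPRY2, -0.21 for ETV5 and -0.31 for TXNIP, which then passed (limma adjusted p = 0.018). TXNIP also passed without selamectin array 1 (0.043), and RICTOR passed without selamectin array 1 (0.048) or untreated array 2 (0.042). Among 14 IGF-binding proteins and other genes of IGF handling, 5 had an unadjusted p under 0.05, each with a negative difference, led by the RNA-binding protein IGF2BP3 (-0.37) and the IGFBP protease PAPPA (-0.35), none past the threshold; 19.9% of all genes had such a p. Without selamectin array 1, IGF2BP3 passed (limma adjusted p = 0.049), and without untreated array 2 PAPPA did (0.037). Among 10 genes of the RAS-MAPK pathway, 4 had an unadjusted p under 0.05, with the scaffold KSR1 at 0.31 and the kinase ARAF at 0.28, and none passed.

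**Figure D5:**
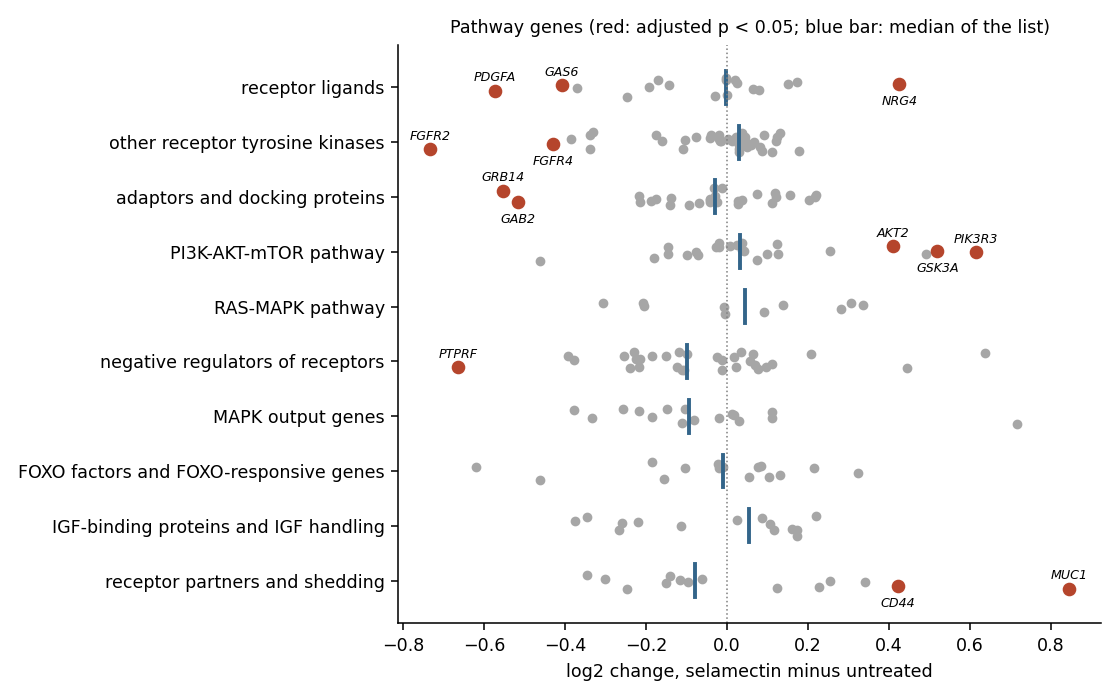
Log2 change of every measured gene of the 10 pathway lists, selamectin minus untreated; red points with names had a limma adjusted p under 0.05, grey points did not, and blue bars are list medians. The medians lie between -0.10 and 0.05, and FGFR2, at -0.73, and MUC1, at 0.84, are the named genes furthest from 0 on either side.

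Of the 13 pathway genes that passed, FGFR2, PTPRF and MUC1 did so whichever array was left out and under every other alternative. PIK3R3 lost its call without untreated array 1 (limma adjusted p = 0.061), and PDGFA without selamectin array 2 or untreated array 3 (up to 0.073). GRB14 and GSK3A lost theirs without selamectin array 2 or untreated array 1 or 3 (up to 0.084 and 0.10). AKT2 and CD44 lost theirs without selamectin array 1 or 2 or untreated array 1 or 3 (up to 0.16 and 0.087). Among the fits that left out an array, NRG4 and FGFR4 passed only in that without selamectin array 3 (otherwise up to 0.15 and 0.14), GAB2 only in that without selamectin array 1 (otherwise up to 0.16), and GAS6 in none (0.053 to 0.17). With all clusters in the fit, the 10 pathway genes other than FGFR2, PTPRF and MUC1 all lost their calls (limma adjusted p from 0.065 to 0.15). AKT2 also lost its call after a second quantile normalization (0.054).

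Marker genes of the line were read as a check of its label. VIM, the mesenchymal intermediate filament protein, stood between 12.82 and 12.94 on the selamectin arrays and between 12.63 and 12.73 on the untreated arrays. ESR1, the gene of the estrogen receptor that triple-negative lines lack, stood between 6.72 and 6.88 with selamectin and between 6.76 and 7.16 untreated. PGR, the progesterone receptor gene, stood between 5.66 and 5.79 with selamectin and between 5.58 and 5.62 untreated. The mean level of all 8 luminal and hormone receptor genes, both included, lay between 8.6 and 8.621 with selamectin. Untreated, it lay between 8.605 and 8.682, so ESR1 and PGR do not stand for the whole list. No marker list shows the makeup of a culture without detection calls. Of 6 markers of a mesenchymal line, CD44 rose (0.42) and SPARC fell (-0.45, limma adjusted p = 0.033), with FN1 at -0.43, VIM at 0.23, CAV1 at 0.23 and ZEB1 at -0.08 without passing. Of 8 luminal and hormone receptor genes, 9 leukocyte markers and 7 endothelial markers, none passed in limma, with 2, 0 and 2 at an unadjusted p under 0.05.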

How the data were processed

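Total RNA of 3 selamectin and 3 control cultures was labelled with biotin using Affymetrix whole-transcript kits, per the labels' protocols. Affymetrix Expression Console, RMA and Transcriptome Analysis Console are named, with no version or role, per the submitters' processing notes. The authors deposited 1 value per cluster and array, taken here as log2 because the array medians lie between 7.47 and 7.51 and RMA gives log2 values; no header states the base. RMA as commonly run equalises the arrays' distributions, so a shift of all genes in 1 group would be lost, and changes of dim genes are compressed. For the genome build, the sources used here give nothing.

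Arrays were grouped by title. The design text calls the replicates independent without saying how the cultures were separated, so p-values measure the spread between these samples. Of 33297 clusters, 19460 carried 1 symbol in the platform annotation, and 1754 with several were left unnamed. Selamectin was compared with untreated over the resulting 18417 genes in limma 3.58.1 under R 4.3.3 (lmFit, eBayes with intensity trend). Tests were two-sided, p-values were adjusted by Benjamini-Hochberg over the whole table, and 0.05 was the threshold. The number of arrays limits the precision; the median standard error was 0.094 log2 units. The fit was tested on simulated data with 200 changed genes. It recovered 85% of changes of 0.5 log2 units and 100% of changes of 1, and made 25 false calls. Those false calls were a larger share of its calls than the 0.05 that the threshold aims at. The simulated noise was independent between genes and arrays, so shifts shared by many genes of an array were not tried. Exact permutation tests compared 8 pairs of readouts, chosen with their values known.

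Members, lists and tests were chosen with earlier results of these data known. Named were all 10 members, up to 4 genes past the threshold per pathway list (with fewer than 2, the 2 with the smallest p), and the 3 nearest profiles of each member that passed. Alternatives were array weights, 2 further normalizations, a replicate block, no intensity trend, robust eBayes, removal of dim genes, all clusters, averaged clusters, single arrays left out and a threshold of 0.1. Batches such as scan date were not tested. Promoter windows came from RefSeq; protein sequences were not used here.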

Additional observations from a re-analysis of the deposited data

How the results depend on the processing

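Over 16 alternatives, the direction of 9 of the 10 genes was kept in every one. In several of these the log2 differences equal the reported ones by construction, so no direction could turn there. These were removal of dim genes, no intensity trend, robust eBayes, all clusters, the replicate block and the threshold of 0.1. With averaged clusters, only the difference of IGF1R could move. MET, at 0.03 as reported, stood at -0.018 with a second quantile normalization and -0.078 with array weights, and between -0.062 (without untreated array 2) and 0.098 with single arrays left out, never past the threshold. The number of the 10 genes called lower, 1 as reported, was 3 with a second quantile normalization or without genes under the median level, 2 with median-centred arrays, without the intensity trend, with robust eBayes or with averaged clusters, 5 with array weights, 0 with all clusters and 4 at a threshold of 0.1. It lay between 0 and 2 when single arrays were left out. The number called higher was 0 with all clusters, with the replicate block and, in all 6 cases, with an array left out, and 1 otherwise. Over all genes, 444 higher and 420 lower became 1822 and 1464 with array weights, 104 and 145 with all clusters and 879 and 723 at a threshold of 0.1, and ranged over 76 to 685 and 100 to 464 with single arrays left out. They were 380 and 525 with a second quantile normalization and 496 and 442 with median-centred arrays. Without genes under the median level they were 554 and 482 of 11209. Without the intensity trend they were 480 and 431, with robust eBayes 529 and 471, and with averaged clusters 451 and 431. Among pathway genes, 6 and 7 became 14 and 30 with array weights and 1 and 2 with all clusters; 15 were lower at 0.1, and single arrays left out gave 1 to 14 and 2 to 8. The array weight of untreated array 3 was 5.11, against 0.45 to 1.22 for the others, so those counts lean on it. Fitting all clusters tests more features, many of them unnamed. The cause of the other shifts was not tested. Removal of dim genes, at a level of 7.49, kept both PDGFRB and IRS1, though each had a group mean under that level. These means were 7.34 for PDGFRB untreated, against 7.68 with selamectin, and 7.31 for IRS1 with selamectin, against 7.79 untreated. That filter therefore did not test whether the calls of PDGFRB and IRS1 rest on low signal in 1 group.

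The titles do not state whether the replicate numbers pair the arrays. Deviations from group means of same-numbered arrays correlated at -0.01, 0.24 and -0.14 across genes. Those of differently numbered arrays ran from -0.206 to 0.299. With 3 arrays per group, such values cannot settle whether arrays were paired. With the number as a block, IRS1 passed (limma adjusted p = 0.022), PDGFRB, NRG4 and GAS6 did not (0.056, 0.060 and 0.069), and 307 genes rose and 343 fell. The dimmer IGF1R cluster, in the fit of all clusters, had 0.12 with the block. GRB14 was not tested by the filter on dim genes.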

Other observations

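Some genes of these pathways varied more within the selamectin group than between groups; they were chosen after their values were seen. IGFBP3, the main carrier of IGFs in serum, had log2 values of 11.52, 11.20 and 9.79 on selamectin arrays 1, 2 and 3, against 10.85, 10.93 and 11.08 untreated. Arrays 1 and 2 lay above all controls and array 3 below all of them. EGR1, an immediate early gene of MAPK signalling, stood at 11.61, 11.45 and 9.77 with selamectin, against 10.18, 9.61 and 10.88 untreated. TXNIP, an arrestin-like protein that restrains glucose uptake, stood at 13.07, 12.97 and 12.10 with selamectin, against 13.32, 13.31 and 13.36 untreated. Every selamectin array lay below the controls for TXNIP, array 3 furthest, and its limma adjusted p was 0.10.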
